A study of Arabidopsis thaliana with 26 samples.

Results

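The shoots of the Arabidopsis line labelled sf6, cut off and dried for 2 h, were compared with the shoots of intact sf6 plants. The comparison rests on 4 of the 26 arrays of the series, 2 labelled sf6 drought and 2 labelled sf6 control, chosen by their source labels. The series measured transcript levels on Affymetrix ATH1 arrays, a 1-colour format with 1 RNA sample on each array, and each sample pooled 18 plants. Sf6 is an EMS mutant in the Col-0 background that the series title ties to the sfr6 (sensitive to freezing) mutation. All plants used here were raised on agar under continuous light, at 21 °C with the humidity at 100%. For sf6 drought, the aerial tissue was cut off, surface water was removed and the shoots lay in a dry air flow at 20 to 22 °C for 2 h. Sf6 control plants stayed intact until harvest. Wt drought and wt control, with 2 arrays each, are the wild type given the same 2 conditions, and sf6 cold is the mutant kept at 4 °C for 24 h. The statistical fit also holds wt cold and the control and cold groups of the lines labelled sf3 and sf2, with 2 arrays each. These 20 arrays together set the spread behind every p-value below. No group was cut and not dried, so cutting and drying cannot be told apart in any difference below.

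The SFR6 gene encodes a subunit of Mediator, the complex that links transcription factors to RNA polymerase II. Mutants in it are known for weak expression of cold-regulated (COR) genes, which respond to cold and to water loss. A cut shoot responds to the wound within minutes through calcium and jasmonate, with calmodulin-like calcium sensors and zinc finger and AP2/ERF transcription factors among the early genes. Water loss acts later, largely through abscisic acid (ABA), and brings up dehydrins and other protective proteins.

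The values are linear intensities of probe sets, each array scaled to the same trimmed mean, so a level here is a scaled intensity with no further unit. The 4 arrays had medians of 43.0 to 43.7. Each of them correlated best with its own replicate among the 20 arrays of the same growth regime, at 0.989 for sf6 drought and 0.990 for sf6 control (log2 scale, across probe sets). On the second principal component of these 20 arrays, which held 6.06% of the variance, sf6 drought lay at 16.4 and 15.0 and sf6 control at -14.6 and -15.8. Wt drought lay at 26.8 and 23.7, and wt control at -14.5 and -7.82. Wt control replicate 2 stood apart from the other 3 wt arrays on the third component (-17.05, against -3.03 to 0.85), which touches every wt change below. Array background in the labels was 90.9 and 64.5 for sf6 drought and 120.7 and 85.5 for sf6 control. Over the 20 arrays it ran from 64.1 to 120.7, so sf6 control replicate 1 was the highest and sf6 drought replicate 2 was close to the lowest. Outlier cells ran from 199 on sf6 control replicate 1 to 1192 on sf6 drought replicate 2, the ends of their range over the 20 arrays. The part of background and outlier cells in the results was not tested. Sf6 drought replicate 2 and wt control replicate 1 have titles that mark them as repeats. Nothing says that the 2 arrays of a group came from separate sowings, so the p-values rest on a spread between samples that may be technical. No probe set in the annotation names SFR6, so the genotype was not checked on its own transcript. Changes are differences of log2(intensity + 16), sf6 drought minus sf6 control unless said otherwise, with the standard error (SE) of the fit. A call is a limma adjusted p below 0.05 over all 17059 probe sets of the fit.

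In all, 670 of 17059 probe sets (3.93%) were called, 366 higher in dried shoots (2.15%) and 304 lower (1.78%). The drought and control arrays did not overlap at any of them, but the calls were made on these same arrays, so this adds no support. A change of at least 2-fold was met by 103 of the higher and 21 of the lower ones, so the large changes were mostly rises. At an unadjusted p below 0.05 there were 3028 probe sets, where chance alone would give 853. The median change of all probe sets was -0.0067. Among the 9434 genes named by a probe set of their own, 316 were called (3.35%), 189 higher (2.0%) and 127 lower (1.35%), with a median change of 0.0039 over all of them. The annotation gives no gene for 163 of the higher and 173 of the lower probe sets, and these are not described by function. The number of calls depended on every array. It was 144 without sf6 control replicate 2, 188 without sf6 drought replicate 1, and 227 without either of the remaining sf6 arrays. The plot of change against level shows all of them.

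**Figure D1:**
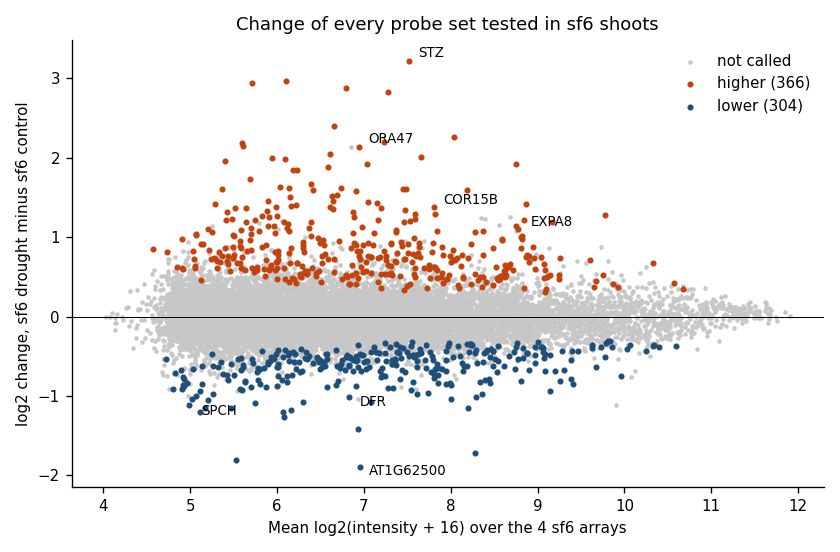
Each point is 1 of 17059 probe sets. The x axis is its mean log2(intensity + 16) over the 4 sf6 arrays and the y axis its log2 change, sf6 drought minus sf6 control. The 366 called rises are orange and the 304 called falls blue, and the rises extend to 3.23 (STZ) and the falls to -1.90 (AT1G62500).

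STZ, a C2H2 zinc finger repressor of stress genes also known as ZAT10, rose most of the named genes. Its intensity was 564.0 and 529.6 on the sf6 drought arrays, against 48.5 and 40.1 on the sf6 control arrays. That is a 12.3-fold ratio of means and a log2 change of 3.23 (SE 0.24, limma adjusted p = 1.79e-06). Both dried samples lay far above both intact ones. ORA47, an AP2/ERF factor that activates genes of jasmonate synthesis, had 214.2 and 273.9 in sf6 drought, against 44.0 and 41.8 in sf6 control. Its log2 change of 2.13 (SE 0.13) had the smaller adjusted p of the pair (limma, 1.12e-07). In the same line after cold, ORA47 stood at 30.6 and 36.6 and STZ at 192.0 and 199.0.

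The other 10 of the 12 largest rises carry a locus identifier and no symbol in the annotation. AT4G29780 had 181.5 and 253.3 in sf6 drought, against 33.6 and 22.7 in sf6 control, and rose by 2.40 on the log2 scale (SE 0.22). AT4G27280 had 592.1 and 527.5, against 140.0 and 76.7 in sf6 control, and rose by 2.26 (SE 0.37). AT3G10930 had 83.8 and 90.8 in sf6 drought, against 10.3 and 3.6 in sf6 control. In each of the 3 genes the dried arrays lay well above the intact ones. The log2 change of AT3G10930 was 2.19. Its intact values lie below the mean intensity of 13.3 that the filter asked for, where the added 16 shrinks a change and a ratio has little meaning, so no fold is given. AT1G72920 rose by 2.00, AT1G11210 by 1.96, AT1G32920 by 1.92, AT4G27652 by 1.63, AT4G33985 by 1.61, AT1G72940 by 1.54 and AT1G23710 by 1.505. AT1G32920 was the brightest of them, at 817.7 and 825.8 in sf6 drought, against 247.1 and 171.3 in sf6 control. The intact values of AT1G11210 (8.0 and 3.1) and AT4G33985 (4.0 and 11.7) also lie below 13.3, so the size of their changes depends on the added 16. With 1 or 64 added instead, AT1G11210 rose by 3.49 or 0.92 and AT4G33985 by 2.83 or 0.745. Of the 12 genes, 10 kept their call under every alternative in which they were tested. AT3G10930, AT1G72920 and AT4G33985 of these 10 were too dim for the filter at the 50th percentile and were tested in 14 of 15. AT4G27280 and AT1G32920 lost it when sf6 control replicate 2 was left out (limma adjusted p = 0.0631 and 0.0775), the highest p of either over its alternatives. Among probe sets listed with no gene, the largest rises were at probe set 245250_at (136.2 and 121.6 in sf6 drought, against 3.6 and 2.1 in sf6 control) and probe set 267357_at (270.7 and 299.7, against 26.7 and 22.9 in sf6 control).

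**Figure D2:**
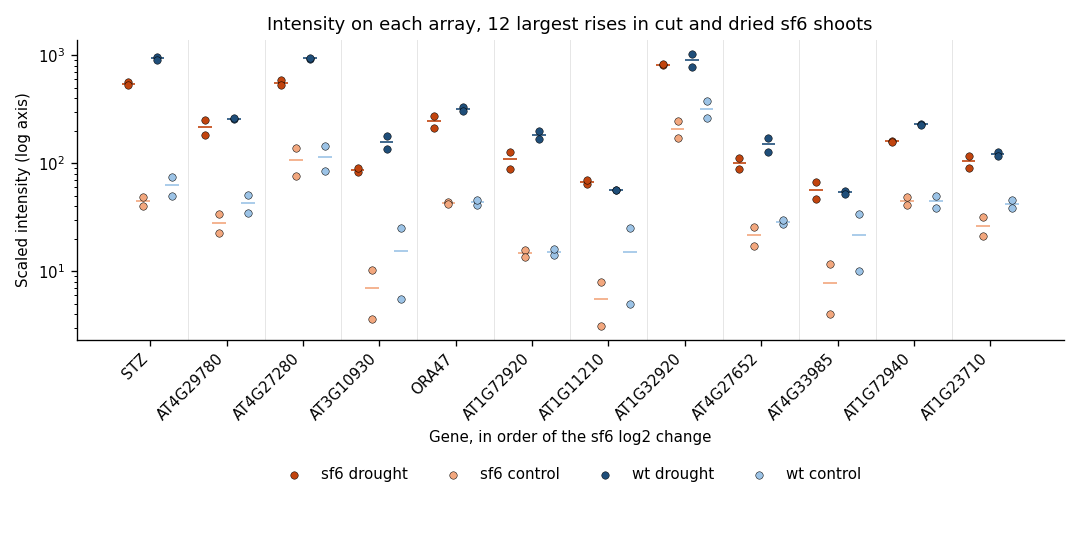
Scaled intensity (log axis) of the 12 named genes with the largest rises, with 1 point per array and a bar at the mean of each group of 2. Sf6 drought and sf6 control are in dark and light orange, wt drought and wt control in dark and light blue. Every gene has both sf6 drought points above both sf6 control points, as the rule that chose these genes requires. STZ is at 564.0 and 529.6 against 48.5 and 40.1.

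Genes of the early wound and calcium response were among the calls. The gene lists here and below were chosen with earlier results of these data known, so their counts and medians are a description and no test. Family lists, such as the calmodulin-like genes, were drawn by symbol or synonym. They miss members that the annotation gives by locus alone. In the list of rapid wound and stress factors, 3 of 6 genes tested rose and none fell (median change 0.61, against 0.0039 over all genes, of which 2.0% were called higher). They were STZ, CML38 and AT2G28200. CML38, a calmodulin-like calcium sensor, had 40.1 and 59.9 in sf6 drought, against 13.3 and 10.7 in sf6 control (log2 change 1.22, SE 0.19, limma adjusted p = 0.00171). CML23, from the same family, had 41.6 and 65.5 in sf6 drought, against 17.5 and 9.6 in sf6 control, a log2 change of 1.23. The remaining 4 of 6 calmodulin-like genes tested were not called, and their changes lay between -0.08 and 0.14. CML41, for example, had 23.2 and 42.5 in sf6 drought, against 25.4 and 29.7 in sf6 control, and its groups overlapped. None of 5 WRKY transcription factor genes was called, a count that the 3.35% called among all genes makes uninformative. WRKY22, a factor of defence signalling, came nearest, with a log2 change of 0.55 (limma adjusted p = 0.0504). AT2G28200 (log2 change 0.64) lost its call without sf6 control replicate 1 or sf6 drought replicate 1, and CML23 without sf6 control replicate 2 or without both repeat1 arrays. The highest limma adjusted p over the alternatives was 0.0921 for AT2G28200, 0.0579 for CML23 and 0.0399 for CML38.

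Jasmonate genes were few in the annotation. Of 4 jasmonate response genes tested, 2 rose, ORA47 and PDF1.4, where 2.0% of all genes were called higher. PDF1.4, a gene of the plant defensin family, had 99.4 and 87.1 in sf6 drought, against 31.2 and 52.9 in sf6 control (log2 change 0.94, SE 0.17, limma adjusted p = 0.00555). PDF1.2, the defensin gene used as a late marker of jasmonate and ethylene, had 85.8 and 76.6 in sf6 drought, against 53.4 and 50.5 in sf6 control, and was not called (log2 change 0.52, SE 0.59). THI2.1, a thionin gene, had a change of 0.03. Of 2 jasmonate synthesis genes tested, neither was called, a count that the 3.35% called among all genes makes uninformative. OPCL1, an enzyme that activates the jasmonate precursor before its side chain is shortened, had a log2 change of 0.39 (limma adjusted p = 0.0559), and JMT, which makes methyl jasmonate, one of -0.25. PDF1.4 lost its call without sf6 control replicate 1 or sf6 drought replicate 1 (highest limma adjusted p over the alternatives 0.0948).

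Most of the dehydration genes that were measured had positive changes in dried shoots, and 1 passed the test. Of 10 dehydration and ABA effector genes tested, 1 rose and none fell, with a median change of 0.41 against 0.0039 over all genes. As 2.0% of all genes were called higher, 1 of 10 is a description only. The 1 that rose was PUB23, a U-box ubiquitin ligase that restrains drought responses, at 33.7 and 37.6 in sf6 drought, against 12.3 and 20.0 in sf6 control (log2 change 0.69, SE 0.17, limma adjusted p = 0.0274). HIS1-3, a linker histone gene induced by drought, had 62.3 and 72.8 in sf6 drought, against 36.3 and 32.8 in sf6 control, and was not called (log2 change 0.72, SE 0.26). The dehydrin gene LTI30 had 105.9 and 64.5 in sf6 drought, against 51.2 and 60.0 in sf6 control (log2 change 0.47, not called). None of the 34 listed ABA signalling genes and none of the 13 listed ABA synthesis and breakdown genes has a named probe set in this annotation, so the core of the ABA pathway was not analysed here.

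COR genes are the classic readout of sfr6. Of 4 genes tested in the list of CBF and DREB factors with cold genes, COR15B rose and none fell (median change 0.43, against 0.0039 over all genes). With 2.0% of all genes called higher, 1 of 4 is a description only. COR27, a cold-regulated gene outside the list, was called too and is described with the wt values below. COR15B, a chloroplast protein that protects membranes during freezing, had 362.9 and 312.3 in sf6 drought, against 170.2 and 95.2 in sf6 control. Both dried arrays were above both intact ones, but the intact ones differed from each other by more than the dried ones did (log2 change 1.29, SE 0.34, limma adjusted p = 0.0438). Leaving out any 1 of the 4 sf6 arrays lost this call, and the highest adjusted p over the alternatives was 0.36. COR47, a dehydrin gene, had 438.0 and 449.4 in sf6 drought, against 335.4 and 331.7 in sf6 control, a log2 change of 0.40 that was not called. COR15A, the close relative of COR15B, had 82.0 and 63.1 in sf6 drought, against 64.1 and 42.3 in sf6 control, so its groups overlapped (log2 change 0.37, not called). In the same line after 24 h at 4 °C, COR15B stood at 2879.3 and 2606.5, COR15A at 3199.3 and 3442.9 and COR47 at 3426.1 and 4074.5. Those cold values are set against the same 2 sf6 control arrays, so the drying and cold changes share their controls. In wt, COR15B had 398.7 and 315.9 in wt drought, against 144.8 and 152.8 in wt control. Its drying response in sf6 minus that in wt was 0.12 on the log2 scale (SE 0.48, limma adjusted p = 0.985), an SE wide enough to leave a difference of either sign.

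Ubiquitin ligases of the U-box family gave 2 rises among 8 genes tested and no fall (median change 0.30, against 0.0039 over all genes, of which 2.0% were called higher). PUB19, which dampens ABA responses, had 88.1 and 83.8 in sf6 drought, against 37.9 and 25.3 in sf6 control (log2 change 1.11, SE 0.19, limma adjusted p = 0.00284). PUB23 was the other. PUB24 and PUB22, close relatives of PUB23, had log2 changes of 0.39 and 0.29 and were not called. PUB19 was also high in sf6 cold (293.4 and 286.2), whereas PUB23 had a cold change of -0.13. The call of PUB19 was lost without sf6 control replicate 2 (limma adjusted p = 0.0687, the highest over its alternatives), and that of PUB23 without any 1 of the 4 sf6 arrays (highest 0.249).

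Among expansin, auxin and homeodomain genes there were single rises. EXPA8, an expansin that loosens cell walls, had 665.3 and 590.6 in sf6 drought, against 343.4 and 265.6 in sf6 control (log2 change 1.01, SE 0.22, limma adjusted p = 0.0151). It was the only 1 called among the 15 tested genes of the expansin list, and the median of the list was -0.14. Beside the 2.0% called higher among all genes, 1 of 15 is a description only. EXLA1, an expansin-like gene, pointed the other way at 64.9 and 74.1 in sf6 drought, against 282.8 and 87.5 in sf6 control, and was not called. IAA29, a repressor in auxin signalling, had 32.9 and 34.3 in sf6 drought, against 16.6 and 7.5 in sf6 control (log2 change 0.84). The other 2 auxin response genes tested, GH3.3 and WES1, had changes of -0.47 and -0.20 and were not called. HAT2, a homeodomain leucine zipper factor induced by auxin, had 177.5 and 180.1 in sf6 drought, against 101.1 and 105.7 in sf6 control (log2 change 0.71, limma adjusted p = 0.00858). IAGLU, which joins glucose to the auxin indole-3-acetic acid, rose by 0.72 on the log2 scale and kept its call under all 15 alternatives. EXPA8 and IAA29 lost their calls in all leave-one-out settings but the one without sf6 control replicate 1, and HAT2 in all 4. Their highest limma adjusted p values were 0.176, 0.267 and 0.0861.

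The falls were smaller, and the largest were at genes without a symbol. AT1G62500 had 37.8 and 61.1 in sf6 drought, against 194.5 and 257.3 in sf6 control, and fell by 1.90 on the log2 scale (SE 0.25, limma adjusted p = 0.000336). AT2G33850 had 151.2 and 158.4 in sf6 drought, against 542.4 and 548.4 in sf6 control, and fell by 1.72 (SE 0.16). The replicates of AT2G33850 were almost equal within each group. AT5G58390 had 28.2 and 28.4 in sf6 drought, against 90.3 and 81.4 in sf6 control, and AT1G64450 had 8.0 and 5.7, against 40.0 and 33.1 in sf6 control. AT5G07030 had 207.0 and 202.0 in sf6 drought, against 429.7 and 429.3 in sf6 control. These 5 genes kept their call under every alternative in which they were tested, which for AT1G64450 leaves out the filter at the 50th percentile. AT1G04945, AT4G17150 and AT4G11190 fell by 1.12, 1.05 and 1.01 and were dim, at 2.9 to 11.8 on the sf6 drought arrays. AT1G04945 lost its call without sf6 control replicate 2 or sf6 drought replicate 2, AT4G17150 without sf6 control replicate 2 or sf6 drought replicate 1, and AT4G11190 without sf6 drought replicate 2 (highest limma adjusted p 0.0886, 0.0941 and 0.0527). Among probe sets listed with no gene, the largest falls were at probe set 254283_s_at (52.5 and 66.3 in sf6 drought, against 175.3 and 193.0 in sf6 control) and probe set 247741_at (51.9 and 11.8, against 93.3 and 84.3 in sf6 control). The suffix of 254283_s_at marks a set that matches several transcripts.

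**Figure D3:**
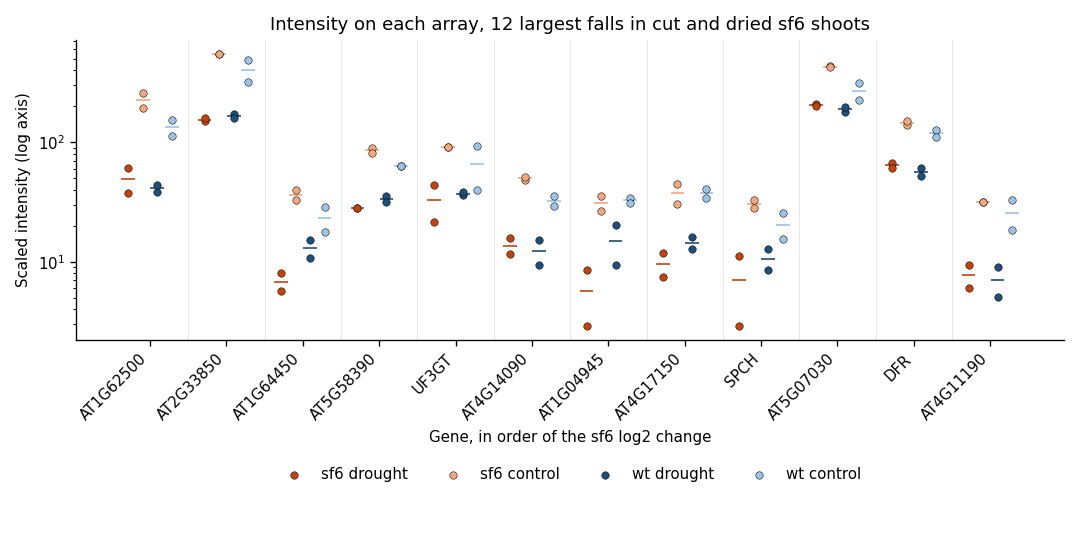
Scaled intensity (log axis) of the 12 named genes with the largest falls, with 1 point per array and a bar at the mean of each group of 2, coloured as in the plot of the rises. Both sf6 drought points lie below both sf6 control points at every gene, as the rule that chose these genes requires. AT2G33850 is at 151.2 and 158.4 against 542.4 and 548.4.

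Of 8 flavonoid and anthocyanin genes tested, 3 fell in dried shoots and none rose, beside the 1.35% called lower among all genes, and the median change of the list was -0.39 against 0.0039 over all genes. DFR, the reductase at the entry to the anthocyanin branch, had 67.4 and 61.3 in sf6 drought, against 140.1 and 151.3 in sf6 control (log2 change -1.01, SE 0.24, limma adjusted p = 0.0287). UF3GT, an anthocyanin glycosyltransferase, had 21.4 and 43.9 in sf6 drought, against 91.8 and 91.0 in sf6 control (log2 change -1.18, SE 0.32, limma adjusted p = 0.0486). AT4G14090, also on the list, had 15.7 and 11.7 in sf6 drought, against 48.8 and 51.4 in sf6 control (log2 change -1.16). UGT78D1, a flavonol glycosyltransferase, had a change of -0.32 and was not called. All 8 changes were below 0, the nearest to it -0.08. Leaving out any 1 of the 4 sf6 arrays lost each of the 3 calls, and their highest limma adjusted p values were 0.182 for DFR, 0.372 for UF3GT and 0.173 for AT4G14090. The call of UF3GT was lost in 9 of 15 alternatives, among them the fit with a replicate block (limma adjusted p = 0.0576) and arrays scaled to equal medians (0.0591). In sf6 cold, UF3GT, AT4G14090 and DFR had log2 differences of 0.59, 0.48 and -0.19 from the same controls.

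Single genes of other lists and roles fell. SPCH, the bHLH factor that starts the stomatal lineage, had 2.9 and 11.1 in sf6 drought, against 28.3 and 33.0 in sf6 control (log2 change -1.04, SE 0.24, limma adjusted p = 0.0233). XTH16, an enzyme that remodels xyloglucan in the wall, had 114.6 and 123.4 in sf6 drought, against 240.3 and 239.3 in sf6 control (log2 change -0.92). It was the only 1 called among the 6 tested genes of its family list. Of 9 tubulin genes tested, TUB7 and TUB1 fell, by 0.43 and 0.56 on the log2 scale, and none rose. TUB1 had 42.7 and 41.6 in sf6 drought, against 62.8 and 77.7 in sf6 control. The median of the tubulin list was -0.05, against 0.0039 over all genes. BCAT4, which starts the chain elongation of methionine for glucosinolates, had 613.7 and 661.3 in sf6 drought, against 1000.5 and 996.6 in sf6 control (log2 change -0.64, limma adjusted p = 0.0145), and was the 1 call among 5 glucosinolate genes. As 1.35% of all genes were called lower, the counts of 1 and 2 in these short lists are a description only. SPCH kept its call in 1 of 4 leave-one-out settings (without sf6 drought replicate 2), TUB7 in 1 (the same), and XTH16, TUB1 and BCAT4 in none. Their highest limma adjusted p values were 0.246, 0.226, 0.126, 0.297 and 0.135 in that order.

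None of 8 light harvesting and Calvin cycle genes was called, a count that the 3.35% called among all genes makes uninformative, and their changes ran from -0.11 to 0.09. RCA, which activates Rubisco, had 2472.1 and 3334.1 in sf6 drought, against 2759.0 and 2826.6 in sf6 control, so the groups overlapped. The 4 leaf mesophyll markers tested summed to 10207.1 and 12607.0 in sf6 drought, against 11210.3 and 11294.6 in sf6 control, each of them at 2294.4 or more on every sf6 array. The 3 root markers tested summed to 1500.5 and 1503.5 in sf6 drought, against 1712.8 and 1887.3 in sf6 control. Most of that was PYK10, a root beta-glucosidase, at 1218.4 and 1224.6 in sf6 drought, against 1345.1 and 1508.7 in sf6 control (log2 change -0.22, not called). The root hair gene EXPA7 was at 22.5 and 27.8, against 21.5 and 32.5 in sf6 control. No root marker was called, none is at 0, and the part of root tissue in the falls was not tested. In bulk samples, fewer cells of a type and less RNA per cell cannot be told apart. None of 10 flower markers has a named probe set. No member was called among 16 sugar transporter and invertase genes, 10 bZIP factors, 5 starvation genes and 3 cytosolic heat shock genes. The same 3.35% makes these counts uninformative too. Of 10 autophagy genes, ATG8C, a ubiquitin-like protein of autophagosomes, rose by 0.39, none fell and the median change was 0.20. With 2.0% of all genes called higher, that single call is a description only. ATG8C had 311.2 and 277.2 in sf6 drought, against 226.4 and 213.5 in sf6 control, and lost its call without any 1 of the 4 sf6 arrays (highest limma adjusted p 0.27).

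**Figure D4:**
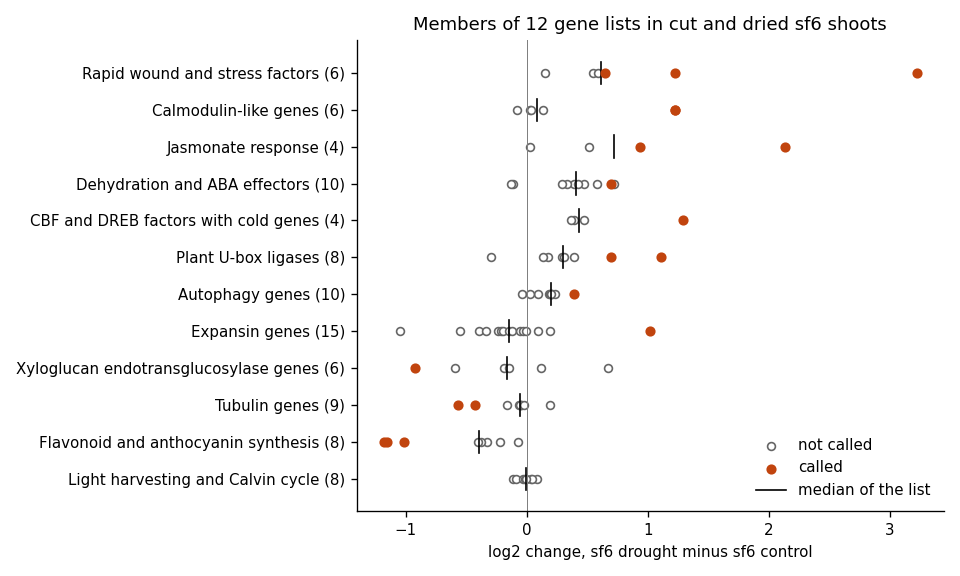
Each point is a gene of 1 of 12 lists, placed by its log2 change, sf6 drought minus sf6 control (x axis). Filled points were called (limma adjusted p below 0.05), open points were not, the black bar is the median of the list and the number of genes tested is in brackets. The medians of the rapid wound factors (0.61) and dehydration genes (0.41) lie right of 0, that of the flavonoid list (-0.39) left of it, and the light harvesting list between -0.11 and 0.09. The lists were chosen with earlier results of these data known.

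The lists of enzyme families held few calls. They were drawn by symbol or synonym, so members that the annotation gives by locus alone are not counted. Of 29 tested genes with a UDP-glycosyltransferase symbol or synonym, 2 rose (IAGLU and UGT76E11) and 1 fell (UF3GT). UGT76E11 had a log2 change of 0.43 and lost its call in 10 of 15 alternatives, among them all 4 sf6 leave-outs (highest limma adjusted p 0.261) and the fit with a replicate block (0.0526). Of 11 glutathione transferase genes, GSTU16 rose by 0.50, and of 17 cytochrome P450 genes CYP71B26 rose by 0.50. GSTU16 lost its call without sf6 control replicate 2 or sf6 drought replicate 1 (highest limma adjusted p 0.142), and CYP71B26 without any 1 of the 4 sf6 arrays (highest 0.192). Beside the 3.35% called among all genes, these counts of 1 to 3 in short lists are a description only. None of the 6 tested genes with a peroxidase symbol or synonym was called, a count that the same 3.35% makes uninformative.

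Some genes outside these lists were called as well, and those named here were chosen after their values were seen. TET8, a tetraspanin of secreted vesicles, had 621.2 and 632.7 in sf6 drought, against 316.9 and 250.8 in sf6 control (log2 change 1.11). CHX20, a cation exchanger of guard cells, had 114.1 and 101.0 in sf6 drought, against 49.4 and 61.8 in sf6 control (log2 change 0.79). STOMAGEN, a secreted peptide that promotes stomata, had 290.3 and 283.8 in sf6 drought, against 195.8 and 193.6 in sf6 control (log2 change 0.52), the opposite direction to SPCH. FDH, formate dehydrogenase of mitochondria, rose by 0.87 on the log2 scale. Falls included ALN, the allantoinase of purine breakdown, at 85.6 and 79.0 in sf6 drought, against 138.6 and 146.1 in sf6 control (log2 change -0.69). AUR1, an Aurora kinase of dividing cells, fell by 0.61, ACT11, an actin, by 0.56, and GH9B13, a glycosyl hydrolase, by 0.82. Of these, STOMAGEN lost its call without any 1 of the 4 sf6 arrays (highest limma adjusted p 0.0927), and the others were not followed through the alternatives.

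The same treatment of wild type gave an independent set of arrays to set beside these calls. The 366 probe sets higher in sf6 drought had a median change of 0.75 in sf6 and 0.77 in wt, and 353 of them were also above 0 in wt. At 330 of them both wt drought arrays were above both wt control arrays. The 304 lower probe sets had a median of -0.58 in sf6 and -0.43 in wt, with 289 below 0 in wt and 255 with wt arrays apart in the same direction. The share of all probe sets with wt arrays apart was not counted, so 330 and 255 have no background to be read against. Of the 103 probe sets at least 2-fold higher in sf6, 88 were at least 2-fold higher in wt. Of the 21 at least 2-fold lower in sf6, 6 were at least 2-fold lower in wt, but all 21 were below 0 there. The medians were 1.32 in sf6 and 1.44 in wt for the 103, and -1.15 and -0.81 for the 21. The share of all probe sets at least 2-fold changed in wt was not counted. Both sets were chosen for their change in sf6, so the size of their change in wt is a description and no test. Across all 17059 probe sets the sf6 and wt changes correlated at r = 0.65 and rho = 0.52, and 67.0% had the same sign. Probe sets are not independent, and the changes come from separate arrays of the same platform. Among the named rises, STZ had 975.7 and 899.7 in wt drought, against 50.2 and 74.6 in wt control, and ORA47 had 335.3 and 307.7, against 41.0 and 46.2 in wt control. The dried levels of both were higher in wt than in sf6, with no overlap.

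**Figure D5:**
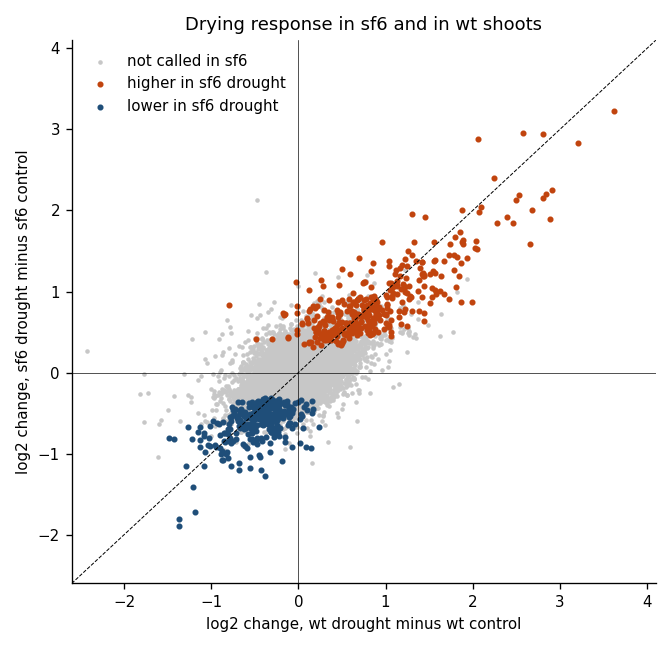
Each point is 1 of 17059 probe sets, with its log2 change in wt (drought minus control) on the x axis and in sf6 on the y axis. The dashed line marks equal changes, and probe sets called in sf6 are coloured (366 higher in orange, 304 lower in blue). The coloured points lie mostly in the upper right and lower left, with 353 of 366 and 289 of 304 on the same side of 0 in wt.

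The difference between the drying responses of sf6 and wt was tested directly. With limma, 0 of 17059 probe sets passed (0.0%), the smallest adjusted p was 0.244, and 1099 had an unadjusted p below 0.05, where chance gives 853. With 2 arrays a group, this does not show that the lines respond alike. For STZ the sf6 response minus the wt response was -0.40 (SE 0.34), for ORA47 -0.37 (SE 0.18) and for AT2G33850 -0.53 (SE 0.23). The dried levels of AT2G33850 were close, at 151.2 and 158.4 in sf6 drought and 170.7 and 158.5 in wt drought. Its intact levels differed more, at 542.4 and 548.4 in sf6 control and 483.5 and 320.5 in wt control. The named gene with the smallest p was AT5G39580. It had 49.8 and 53.1 in sf6 drought, against 22.0 and 21.8 in sf6 control, and 41.7 and 37.4 in wt drought, against 61.1 and 103.5 in wt control. It was thus higher in dried sf6 shoots and lower in dried wt shoots, with arrays apart in both lines, and the difference of 1.62 (SE 0.30) did not pass (limma adjusted p = 0.259). The intact levels of AT5G39580 already differed between the lines (sf6 control minus wt control -1.34). Its difference of responses was 1.31 without wt control replicate 2 and 1.94 without wt control replicate 1. AT3G28020 had a difference of 0.96, from 39.0 and 39.4 in sf6 drought, against 18.8 and 28.3 in sf6 control, and 26.3 and 19.5 in wt drought, against 41.3 and 34.4 in wt control. AT3G23550 (-0.92), AT3G24080 (0.65) and AT5G02230 (-0.77) were the remaining 3 of the 5 smallest, each with a limma adjusted p of 0.346. In AT5G02230 the dried arrays read 159.0 and 181.8 in sf6, against 128.6 and 146.6 in sf6 control, and 199.8 and 237.7 in wt drought, against 103.1 and 91.7 in wt control.

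COR27 and AT2G15960 were called in sf6 and had overlapping wt arrays. They were picked after their values were seen and stand for no other gene. COR27, a cold-regulated gene, had 77.6 and 75.7 in sf6 drought, against 30.1 and 22.1 in sf6 control (log2 change 1.14). In wt it had 99.4 and 68.9 in wt drought, against 43.1 and 99.0 in wt control, so the wt groups overlapped through wt control replicate 2. AT2G15960 had 1320.9 and 1376.6 in sf6 drought, against 568.7 and 525.5 in sf6 control, and 1542.1 and 1477.3 in wt drought, against 755.7 and 1500.2 in wt control. There too wt control replicate 2 lay at the dried level. The part of that array in the sf6 minus wt differences of both genes was not tested. A count of calls without that array cannot decide this, as the full fit already gave 0 calls for the difference.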

How the data were processed

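Per the deposited table, the authors' values are linear probe set intensities, 1 for each of 22810 probe sets and 26 arrays, with a 2% trimmed mean of 100.01 on every array. The software that made these intensity values is not given in the sources used here, and the table carries no detection calls, so low values have no stated limit. Groups and replicate numbers came from the labels. After 64 control probe sets and those with a mean below the 25th percentile (13.3) were left out, log2(intensity + 16) of 17059 probe sets on 20 arrays (10 groups) was fitted with limma 3.58.1 in R 4.3.3, with an intensity trend, no replicate block and 10 residual degrees of freedom. Benjamini-Hochberg adjusted p-values below 0.05 were called. The difference of drying responses was a contrast in the same fit. The code was tested on simulated data. The number of arrays limits the precision.

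Genes were named from the platform annotation: 13513 probe sets list 1 gene, 503 several and 8730 none. Symbols and gene order come from a RefSeq table of TAIR10.1. Named genes are the 12 largest rises and 12 largest falls called with arrays apart, the 5 smallest p for the difference (none passed), and in each list the 4 members of smallest adjusted p. The probe set with the highest mean stands for a gene. Of 63 lists, 49 had a tested member. Of the 63, 23 name 439 genes by locus, of which 69 were tested. The other 40 pick genes by a pattern on symbol or synonyms and miss members given by locus alone. The members and lists were chosen with earlier results of these data known. Alternatives changed the pseudocount, filter, scaling, weights, trend, block and arrays.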

Additional observations from a re-analysis of the deposited data

How the results depend on the processing

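The count of 670 probe sets called in sf6 was 1527 (741 higher) with array quality weights and 1385 (748 higher) in a fit of the compared groups alone. It was 235 (150 higher) without both repeat1 arrays, and 144 to 227 when 1 sf6 array was left out. The remaining settings gave 511 to 733. In the leave-one-out fits the lone array of a group is assumed to vary like the other groups. Smaller counts there follow fewer arrays by construction; for the other shifts the cause was not tested. The difference between sf6 and wt gave 0 calls in all settings but 2. With array quality weights it gave 3, AT5G39580 and probe sets 255284_at and 260379_at (limma adjusted p = 0.0341 each, against 0.259, 0.244 and 0.244). Without wt drought replicate 1 it gave 1, probe set 262466_at (0.0468, against 0.767), so leave-one-out counts ran from 0 to 1.

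Of 44 named genes, 17 kept their call under every alternative in which they were tested (5 of the 17 were too dim for the filter at the 50th percentile), among them 10 of the 12 rises and 5 of the 12 falls, and none changed direction. Replicate numbers were not taken to pair the samples: over 45 pairs of groups the correlation of same-numbered deviations ran from -0.25 to 0.25, with 5 above 0.1, all between other groups than sf6 drought and sf6 control (0.056). With a replicate block, 649 probe sets were called (368 higher), 622 of them shared with the 670, and 0 for the difference. Among named genes the block ended the calls of UF3GT and UGT76E11 and no other. The data give no cell-type resolution, no detection calls and no cut but undried group.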

Other observations

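Some called genes lay beside one another. In the gene order of the TAIR10.1 table, 32 of 310 called genes with a place fell in 14 runs with at most 5 protein-coding genes between members, and 4 runs held 3 or more. No test of this was made, and the genes were picked after their values were seen. On chromosome 4, AT4G27652, AT4G27654 and AT4G27657 are direct neighbours and rose by 1.63, 1.19 and 1.45 on the log2 scale. AT4G27657 had 81.2 and 83.1 in sf6 drought, against 21.2 and 18.7 in sf6 control, and AT4G27654 had 53.1 and 66.9, against 18.3 and 16.2 in sf6 control. On chromosome 1, AT1G72900, AT1G72920 and AT1G72940 rose by 1.36, 2.00 and 1.54. On chromosome 4, AT4G33960, AT4G33980 and AT4G33985 rose by 0.64, 1.26 and 1.61. Among the falls, AT1G62480 (233.7 and 258.8 in sf6 drought, against 435.0 and 465.6 in sf6 control) lies with 1 gene between it and AT1G62500, the gene that fell most.

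The mitochondrial genes cox1 and nad5 were picked after their values were seen and stand for no group. The cox1 gene, for a subunit of cytochrome oxidase, had 122.4 and 106.1 in sf6 drought, against 58.5 and 66.9 in sf6 control (log2 change 0.73, limma adjusted p = 0.0318). In wt it had 186.1 and 140.5 in wt drought, against 70.0 and 74.6 in wt control. The nad5 gene, a subunit of complex I, has a pair of probe sets that disagree on the call: the brighter one, whose suffix marks a set that matches several transcripts, had a log2 change of 0.89 (limma adjusted p = 0.0427) and the other 0.63 (0.107).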
